A study of Mus musculus with 24 samples.

Results

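The comparison described here is that of embryoid bodies treated with FK506 and cyclosporin A (CsA) at day 6 of differentiation against untreated embryoid bodies of the same day, 3 arrays against 3. These 6 arrays were chosen by their titles from the 24 of the series, and all 19938 genes measured by a probe set with a single gene symbol were compared. Embryoid bodies (EBs) are floating aggregates in which embryonic stem cells differentiate, and these came from 1 mouse line, 46C, in which the neural gene Sox1 is tagged with a fluorescent reporter. Differentiation began on day 1, the cells were aggregated on day 3 and the EBs were plated on day 7, so day 6 EBs were in suspension. The change to serum-free medium came on day 8, in treated and untreated cultures alike. Treated cultures received FK506 at 100 ng/ml together with CsA at 1 ug/ml from day 3 onward, and the drugs stayed until day 8. The labels call the control cultures untreated, name no vehicle and number 3 biological replicates in each group.

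FK506 and CsA bind the immunophilins FKBP12 and cyclophilin A inside the cell, and each complex blocks calcineurin, the calcium-dependent phosphatase that lets NFAT transcription factors enter the nucleus. Bone morphogenetic proteins (BMPs) act through receptor-activated Smad factors, which switch on Msx and Id genes and the inhibitory Smads that damp the pathway. In the early embryo BMP signalling favours posterior and lateral mesoderm over neural fates, and cells that leave the primitive streak as mesoderm lose epithelial junctions and gain mesenchymal genes.

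Signals are given on the log2 scale, where a difference of 1 is a doubling, and each difference is treated minus untreated. Unless days are compared, a rise or gain and a fall mean higher or lower in treated than in untreated EBs of day 6. Array medians ran from 7.85 to 7.87 over the 6 arrays of day 6. The second replicate stood apart in both groups for the genes described below: among the 251 genes that were higher after treatment, untreated replicate 2 was the lowest untreated array for 209 (83.3%) and treated replicate 2 the lowest treated array for 177 (70.5%), against 29.9% and 25.5% over all genes. Same-numbered arrays deviated together from their group means (correlations of 0.30, 0.14 and 0.21). The numbers were read as pairs on these correlations alone and entered as a block in an alternative fit; the values below are from the fit without it unless the block is named. The EBs still had high signals of the pluripotency and epiblast genes Pou5f1 (12.43 ± 0.07 untreated and 12.21 ± 0.03 treated, SD, n = 3 arrays each), Nanog (12.67 ± 0.07 and 12.59 ± 0.21) and Sox2 (11.65 ± 0.09 and 11.39 ± 0.18), beside the streak genes Mixl1 (11.69 ± 0.43 and 12.39 ± 0.08) and Eomes (11.76 ± 0.21 and 12.07 ± 0.08). No defining marker of endothelium (6 genes), blood (5), cardiac muscle (5), neural plate (4), neurons (4), visceral endoderm (6), surface ectoderm (3) or feeder-type fibroblasts (6) passed the test in either direction. This does not show that these levels were equal. The mean over the markers was higher on all treated arrays for visceral endoderm (7.52 to 7.63, against 7.30 to 7.40 untreated) and cardiac muscle (8.15 to 8.33, against 7.97 to 8.13). It was lower for endothelium (6.99 to 7.07, against 7.17 to 7.24), and the groups overlapped for the other types named here. In RNA of whole EBs a change in the number of cells of a type and a change in RNA per cell cannot be told apart.

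More genes were called higher than lower in treated EBs, and the largest differences were gains. With limma's moderated test, fitted over all 24 arrays and adjusted by the Benjamini-Hochberg method over 19938 genes at a threshold of 0.05, 251 genes were higher in treated EBs (1.26% of those tested) and 115 lower (0.577%). The median difference was 0.64 among the genes called higher and -0.44 among those called lower, against 0.004 over all genes. At least a doubling was seen for 58 of the higher genes, whereas only 3 of the lower genes were at 50% or less of the untreated level. For 362 of the 366 called genes the 3 treated arrays lay on one side of the 3 untreated arrays; over all genes, the treated arrays lay wholly above for 12.1% and wholly below for 9.44%. With the replicate number as a block within each day, 418 genes were higher and 303 lower, and 58.0% of the calls were then gains, against 68.6% without the block, 60.4% after centring on the array median and 54.4% after quantile normalization. The split was closest to even with array weights (668 and 624, 51.7% gains) and in the 6 arrays of day 6 alone with the block (562 and 533, 51.3%). Leaving out 1 array lowered both counts most for untreated replicate 2, which left 79 higher and 19 lower genes. Next came treated replicate 1 for the higher genes (94 and 36) and treated replicate 3 for the lower ones (155 and 32). Leaving out untreated replicate 3 left 174 and 37. Without untreated replicate 1 the counts were 220 and 129, and without treated replicate 2 they were 246 and 122.

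**Figure D1:**
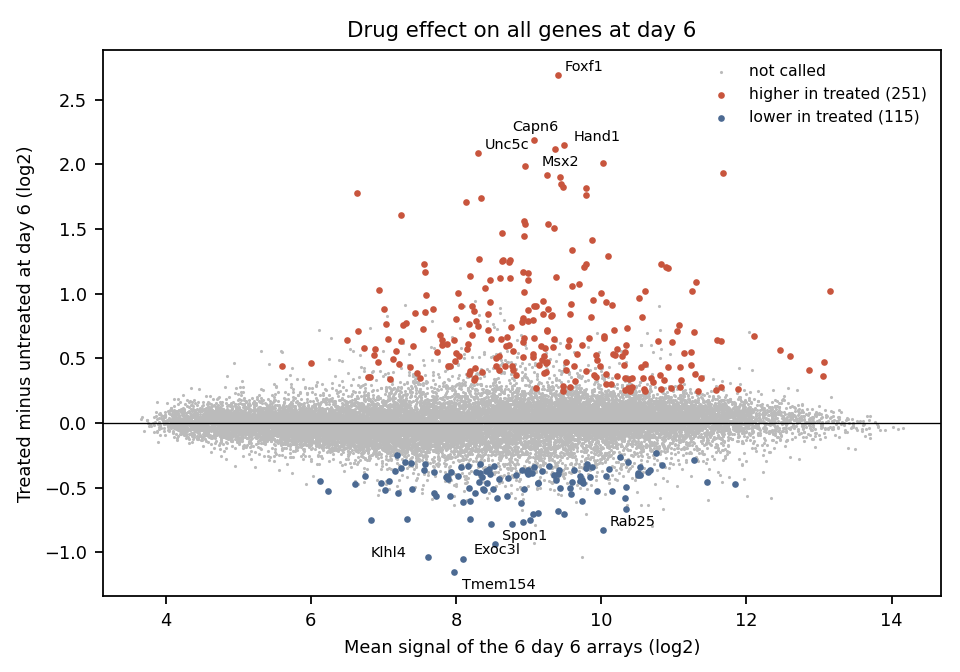
Difference between treated and untreated EBs at day 6 (log2, vertical axis) against the mean signal of the 6 arrays (log2, horizontal axis) for all 19938 genes, 1 point per gene. The 251 genes called higher (red) reach 2.69, at Foxf1, while the 115 called lower (blue) reach only -1.15, at Tmem154.

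Genes of BMP ligands, receptors and Smads, modulators and targets were among those that rose, with 0 falls in these lists. Over all genes 1.26% rose and 0.577% fell. Among 17 BMP ligand genes measured, 3 rose and 0 fell (median difference 0.02). Bmp4, the ligand of the posterior epiblast and extraembryonic tissue, read 10.33, 10.02 and 10.53 on untreated replicates 1 to 3 and 11.79, 11.10 and 11.61 on the treated ones, a gain of 1.20 (SE 0.16, limma adjusted p = 0.000216). Bmp5, a ligand related to Bmp7, read 7.62, 7.08 and 7.72 without and 9.65, 8.52 and 9.46 with the drugs, a gain of 1.74 or 3.33-fold (SE 0.27, limma adjusted p = 0.00112). All treated arrays of both genes lay above all untreated ones, and replicate 2 was the lowest array of each group. Bmp6 rose by 0.33 (SE 0.07), and Bmp2 had a difference of 0.83 that did not pass. At the level of receptors and Smads 2 of 16 genes rose and 0 fell: Bambi, which encodes a decoy receptor without kinase activity, rose by 1.01 (SE 0.19), and Smad1, a signal-carrying Smad, by 0.54 (SE 0.10). Neither was called without untreated replicate 2, where 0 of the 16 passed.

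Of 27 secreted BMP antagonists and modulators, 2 rose (7.41%, against 1.26% of all genes) and 0 fell, with a median difference of 0.01. Bmper, which binds BMPs outside the cell, read 8.29, 7.56 and 8.18 untreated and 9.66, 8.85 and 9.28 treated, so the groups did not overlap, and it rose by 1.25 (SE 0.20, limma adjusted p = 0.00142). Fstl4, of the follistatin-like family, rose by 0.35 (SE 0.08). The antagonist genes Nog (0.03, SE 0.09) and Chrd (-0.43, SE 0.12, limma adjusted p = 0.0834) were not called. Chrd was called lower with array weights and without treated replicate 2, and its limma adjusted p ran from 0.00641 to 0.37 over the alternatives. Cer1, an antagonist of BMP, Nodal and Wnt made by anterior mesendoderm, had the lowest difference of the list, -1.04 (SE 0.41), and did not pass.

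Feedback and target genes of BMP were the BMP group with the most calls. Of 23 measured, 9 rose (39.1%, against 1.26% of all genes) and 0 fell, with a median difference of 0.36. For 13 of the 23 the treated arrays lay wholly above the untreated ones, against 12.1% of all genes. Msx2 and its relative Msx1 encode homeobox repressors induced by BMP. Msx2 read 8.61, 7.73 and 8.59 untreated and 11.01, 9.74 and 10.54 treated, a gain of 2.12 or 4.35-fold. Msx1 read 8.47, 7.73 and 8.34 against 9.78, 8.85 and 9.26, a gain of 1.12 (SE 0.20, limma adjusted p = 0.00334). In both genes replicate 2 was the lowest of either group, and each treated array lay above all untreated ones. Smad6, an inhibitory Smad, read 8.50, 8.15 and 8.38 against 9.99, 9.01 and 9.52 (gain 1.16, SE 0.19). Tbx3, a T-box repressor, rose by 1.76 (SE 0.21), Gata3 by 1.05 (SE 0.23), the caudal-type gene Cdx2 by 0.94 (SE 0.21) and Tbx2 by 0.87 (SE 0.20). Among the Id genes, which encode inhibitors of bHLH factors, Id1 rose by 0.72 (SE 0.17) and Id2 by 0.64 (SE 0.13), while Id3 (0.36, SE 0.15) and Id4 (-0.08, SE 0.10) did not pass. The inhibitory Smad7 stood at 9.35, 9.59 and 9.59 untreated and 10.09, 9.79 and 9.88 treated; the groups did not overlap, yet its difference of 0.41 had a limma adjusted p of 0.062, and it passed with the replicate block within day (range over the alternatives 0.0131 to 0.281). Calls of Msx2, Msx1, Smad6 and Tbx3 were kept in all 15 alternative fits. Without untreated replicate 2 the list held 4 calls, as it did without treated replicate 1, and those of Id1, Id2, Gata3, Cdx2 and Tbx2 ended there.

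No binding or activity of Smad factors, whose GC-rich binding sequences include GGCGCC and GGAGCC, was measured here. The sequences upstream of Msx2, Msx1, Smad6 and the ligand gene Bmp4 are shown as examples of BMP pathway genes that were called higher. Each is the 250 bases before the start of the gene, written 5′ to 3′ on the gene's own strand, taken from RefSeq on build GRCm38.p6, with GGAGCC on either strand (GGCTCC on the other) in capitals.
Msx2: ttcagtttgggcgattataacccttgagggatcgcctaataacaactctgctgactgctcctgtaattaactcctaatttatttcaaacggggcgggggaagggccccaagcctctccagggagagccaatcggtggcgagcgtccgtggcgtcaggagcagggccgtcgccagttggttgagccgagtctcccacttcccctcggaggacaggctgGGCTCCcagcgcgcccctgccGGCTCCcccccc
Msx1: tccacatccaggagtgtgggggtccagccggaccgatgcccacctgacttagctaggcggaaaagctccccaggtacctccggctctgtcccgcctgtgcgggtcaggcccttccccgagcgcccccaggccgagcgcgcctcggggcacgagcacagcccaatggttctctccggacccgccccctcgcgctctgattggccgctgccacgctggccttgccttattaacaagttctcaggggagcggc
Smad6: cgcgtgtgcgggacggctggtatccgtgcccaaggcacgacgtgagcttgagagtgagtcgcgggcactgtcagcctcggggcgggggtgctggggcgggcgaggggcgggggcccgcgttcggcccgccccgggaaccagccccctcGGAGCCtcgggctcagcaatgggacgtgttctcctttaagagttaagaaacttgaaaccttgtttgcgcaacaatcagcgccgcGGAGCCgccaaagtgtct
Bmp4: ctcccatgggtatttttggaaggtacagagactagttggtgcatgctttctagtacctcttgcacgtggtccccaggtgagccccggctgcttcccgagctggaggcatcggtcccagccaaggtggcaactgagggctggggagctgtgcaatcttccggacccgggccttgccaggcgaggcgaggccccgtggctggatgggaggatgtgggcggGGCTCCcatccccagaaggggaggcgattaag
The window of Msx2 is chr13:53472781-53473030, that of Msx1 chr5:37824586-37824835, that of Smad6 chr9:64022060-64022309 and that of Bmp4 chr14:46390670-46390919, all on the minus strand. GGAGCC occurred 2 times in the Msx2 and Smad6 windows, 1 time in that of Bmp4 and 0 times in that of Msx1, and GGCGCC occurred in 0 of the 4. Over the 15614 genes with such a window, 34.1% held GGAGCC on either strand, against 91 of 203 genes called higher (44.8%) and 33 of 89 called lower (37.1%). GGCGCC, which reads the same on both strands, was held by 15% of all, 22.2% of the higher and 15.7% of the lower genes. The core sequence of NFAT sites, TGGAAA, was found on either strand in 19.4% of all windows, 18.7% of those of higher genes and 24.7% of those of lower genes, and in 0 of the 4 shown. These are matches of letters in a short window, not sites of binding.

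Regulators of lateral plate and extraembryonic mesoderm, the layer that gives the heart, body wall and allantois, held several of the largest gains. Of 33 measured, 9 rose (27.3%, against 1.26% of all genes) and 0 fell, and the list's median difference was 0.28. Foxf1, a forkhead factor of lateral plate and allantois, read 8.09, 7.77 and 8.33 untreated and 11.31, 9.88 and 11.08 treated, a gain of 2.69 or 6.45-fold (SE 0.27, limma adjusted p = 1.7e-05); a further probe set for Foxf1 gave 3.53. Hand1, a bHLH factor of lateral mesoderm and trophoblast, read 8.42, 8.13 and 8.71 against 11.26, 9.72 and 10.72, a gain of 4.42-fold. Treated replicate 2 was the lowest treated array of both genes but still lay above every untreated array. Prdm6, a regulator known from smooth muscle, read 8.45, 7.24 and 8.18 against 10.42, 9.30 and 10.10 (gain 1.98, SE 0.29). Tbx20, a T-box factor of the cardiac mesoderm, read 8.68, 8.27 and 8.62 against 10.98, 9.45 and 10.68 (gain 1.84, SE 0.30). Pdgfra, the PDGF receptor of early mesoderm, showed its largest gap in replicate 2: 9.66, 8.29 and 9.54 untreated against 10.71, 10.54 and 10.49 treated (gain 1.42, SE 0.27). Isl1, a LIM-homeobox factor of second heart field and motor neurons, rose by 1.27 (SE 0.21), and the zinc-finger factor Gata4 by 1.23 (SE 0.22). Hand2 (0.91), Gata6 (0.69), Tbx5 (0.43) and Foxf2 (0.26) had positive differences that did not pass, and Wt1 had the lowest of the list, -0.39. With untreated replicate 2 or treated replicate 1 left out, 8 of the 33 rose, and the calls of Foxf1, Hand1, Prdm6, Tbx20, Pdgfra, Isl1 and Gata4 were kept in every alternative fit.

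**Figure D2:**
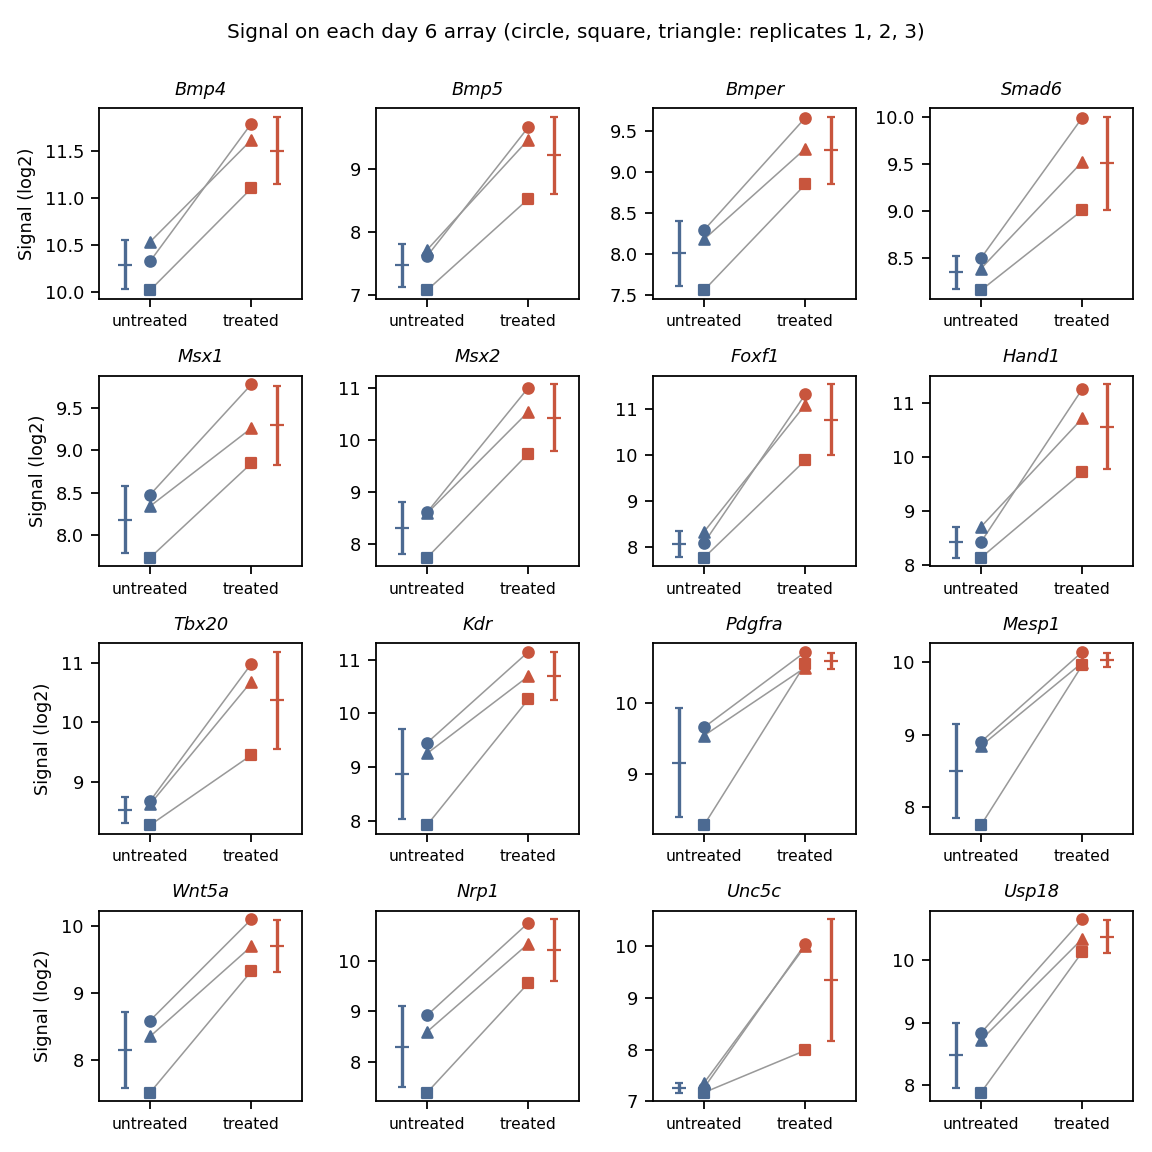
Signals (log2, vertical axes, a separate scale per gene) of 16 genes on the untreated (blue) and treated (red) arrays of day 6; circles, squares and triangles are replicates 1, 2 and 3, grey lines join equal numbers, and bars are the mean ± SD (n = 3). In each panel all 3 treated points lie above all 3 untreated points, and the squares of replicate 2 are the lowest untreated points.

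Streak and paraxial mesoderm genes had smaller shares of calls than lateral plate genes, a difference that was not tested. Of 29 streak and mesendoderm genes 4 rose and 0 fell (median 0.11), and of 30 genes of paraxial and presomitic mesoderm 2 rose and 0 fell (median 0.15). The shares that rose were 13.8% and 6.67%, against 1.26% of all genes. Mesp1, a bHLH factor of the first cardiac mesoderm, read 8.90, 7.74 and 8.84 untreated and 10.15, 9.96 and 9.99 treated. The treated arrays of Mesp1 agreed closely with each other and lay above the untreated ones, of which replicate 2 was lowest; the gain was 1.54 (SE 0.28, limma adjusted p = 0.00424). Wnt3, the ligand that starts streak formation, rose by 0.92 (SE 0.20), the homeobox gene Evx1 of the posterior streak by 0.60 (SE 0.12) and the angiomotin gene Amot by 0.76 (SE 0.19). Foxa2 (-0.54), Otx2 (-0.38), Hhex (-0.25) and Gsc (0.038), genes of the anterior streak and its derivatives named after their values were seen, did not pass. In the paraxial list Nkd1, a feedback inhibitor of Wnt signalling, rose by 0.80 (SE 0.13) and Snai1, a repressor of epithelial genes, by 0.66 (SE 0.13). None of the 29 streak genes was called without untreated replicate 2, where Mesp1 had a limma adjusted p of 0.0513 (range over its alternatives 0.000314 to 0.0513).

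Endothelial, blood and heart muscle genes gave 4 calls in all, where 1.84% of all genes were called in either direction. Among 38 endothelial and haemangioblast genes 1 rose and 1 fell, and 27 of the 38 differences were below 0 (median -0.12). The gene that rose was Kdr, the VEGF receptor of early mesoderm as well as endothelium, which read 9.46, 7.93 and 9.26 untreated and 11.14, 10.26 and 10.69 treated, a gain of 1.82 or 3.52-fold (SE 0.28, limma adjusted p = 0.00112). Ramp2, a partner of the adrenomedullin receptor, fell by 0.46 (SE 0.10). Etv2 (-0.33), Cdh5 (-0.35), Tek (-0.43) and Flt1 (-0.46), genes of endothelial progenitors and endothelium, were not called. Of 21 erythroid and blood genes 1 rose, Runx1, a regulator of the first blood cells (0.79, SE 0.20), and its call ended in 8 of the 15 alternative fits. Acta1, an actin of striated muscle, fell by 0.44 (SE 0.11) and was the 1 call among 36 cardiac and smooth muscle genes. The call of Kdr was kept in every alternative fit. In the 6 arrays of day 6 alone with the replicate block 8 endothelial genes fell, and the falls of Ramp2 and Acta1 ended without untreated replicate 2.

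Calls among mesenchymal genes were rises, and calls among genes of epithelial junctions were falls, while most members of both lists did not pass. In the list of mesenchyme and epithelial-mesenchymal transition (EMT) 11 of 31 genes rose (35.5%, against 1.26% of all genes) and 0 fell. The median difference was 0.40, and for 19 of the 31 the treated arrays lay wholly above (12.1% over all genes). Cdh11, a mesenchymal cadherin, read 10.66, 9.70 and 10.27 untreated and 11.69, 11.13 and 11.49 treated (gain 1.23, SE 0.19, limma adjusted p = 0.00112). Vim, the intermediate filament of mesenchyme, read 12.76, 12.59 and 12.62 against 13.13, 13.03 and 13.05, a small gain of 0.41 with a small SE of 0.07. Neither gene's groups overlapped. Tgfb2 rose by 1.24 (SE 0.27), the matrix gene Fbln2 by 0.87 (SE 0.15), the EMT repressor genes Zeb1 by 0.78 (SE 0.15) and Zeb2 by 0.51 (SE 0.12), Tgfb1 by 0.73 (SE 0.16), the N-cadherin gene Cdh2 by 0.64 (SE 0.12) and the fibronectin gene Fn1 by 0.47 (SE 0.11). Fibroblast genes of the same list, Dcn (-0.46), Thy1 (-0.33), Lum (0.10) and Postn (0.16), did not pass. Without untreated replicate 2, and without treated replicate 1, 5 of the 31 rose.

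Of 44 genes of epithelial junctions and keratins 0 rose and 4 fell (9.09%, against 0.577% of all genes). For 37 of the 44 the difference was below 0 (median -0.22), and for 21 the treated arrays lay wholly below (9.44% over all genes). Rab25, a vesicle GTPase of epithelial cells, read 10.38, 10.48 and 10.47 untreated and 9.50, 9.76 and 9.58 treated, a fall of 1.78-fold (-0.83, SE 0.18, limma adjusted p = 0.0158). The tight junction gene Marveld3 read 8.30, 8.63 and 8.72 against 8.00, 8.11 and 8.16 and fell by 0.46 (SE 0.10). The polarity gene Crb3 fell by 0.41 (SE 0.10) and Krt7 by 0.38 (SE 0.09). The groups of Rab25 and of Marveld3 did not overlap. Cdh3 (-0.51), Cldn3 (-0.45), Grhl2 (-0.43), Cldn7 (-0.36) and the E-cadherin gene Cdh1 (-0.33) stood lower without passing, while the desmosome genes Dsp (0.44) and Dsg2 (0.33) stood higher without passing. Under the replicate block 11 of the 44 fell and 1 rose. None was called without treated replicate 1 or without untreated replicate 3, and Rab25 had limma adjusted p-values from 0.000149 to 0.0975 over its alternatives.

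Cell adhesion and matrix genes were called in both directions, where 1.26% of all genes rose and 0.577% fell. Among 34 cadherins and protocadherins 5 rose and 2 fell: Pcdh18 rose by 1.34 (SE 0.22), Pcdh7 by 0.94 (SE 0.21) and Cdh8 by 0.63 (SE 0.13), beside Cdh11 and Cdh2, while Cdh9 fell by 0.75 (SE 0.18) and Pcdh1 by 0.52 (SE 0.12). Among 70 matrix genes 4 rose and 2 fell, with a median of 0.007. Has2, which makes hyaluronan, read 10.05, 10.13 and 10.11 untreated and 11.29, 10.97 and 11.10 treated, a gain of 2.03-fold (SE 0.14 on the log2 scale, limma adjusted p = 0.000441). The untreated arrays of Has2 lay close together, and its call was kept in every alternative fit. The glypican genes Gpc6 and Gpc3 rose by 0.53 (SE 0.13) and 0.52 (SE 0.08). Spon1, which encodes F-spondin, read 8.54, 9.32 and 9.17 against 7.80, 8.19 and 8.24, a fall of 1.91-fold, and the thrombospondin gene Thbs1 fell by 0.67 (SE 0.17). The call of Spon1 ended without untreated replicate 2, untreated replicate 3 or treated replicate 1 (limma adjusted p 7.57e-05 to 0.0988 over its alternatives). None of 44 collagen genes passed in either direction.

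**Figure D3:**
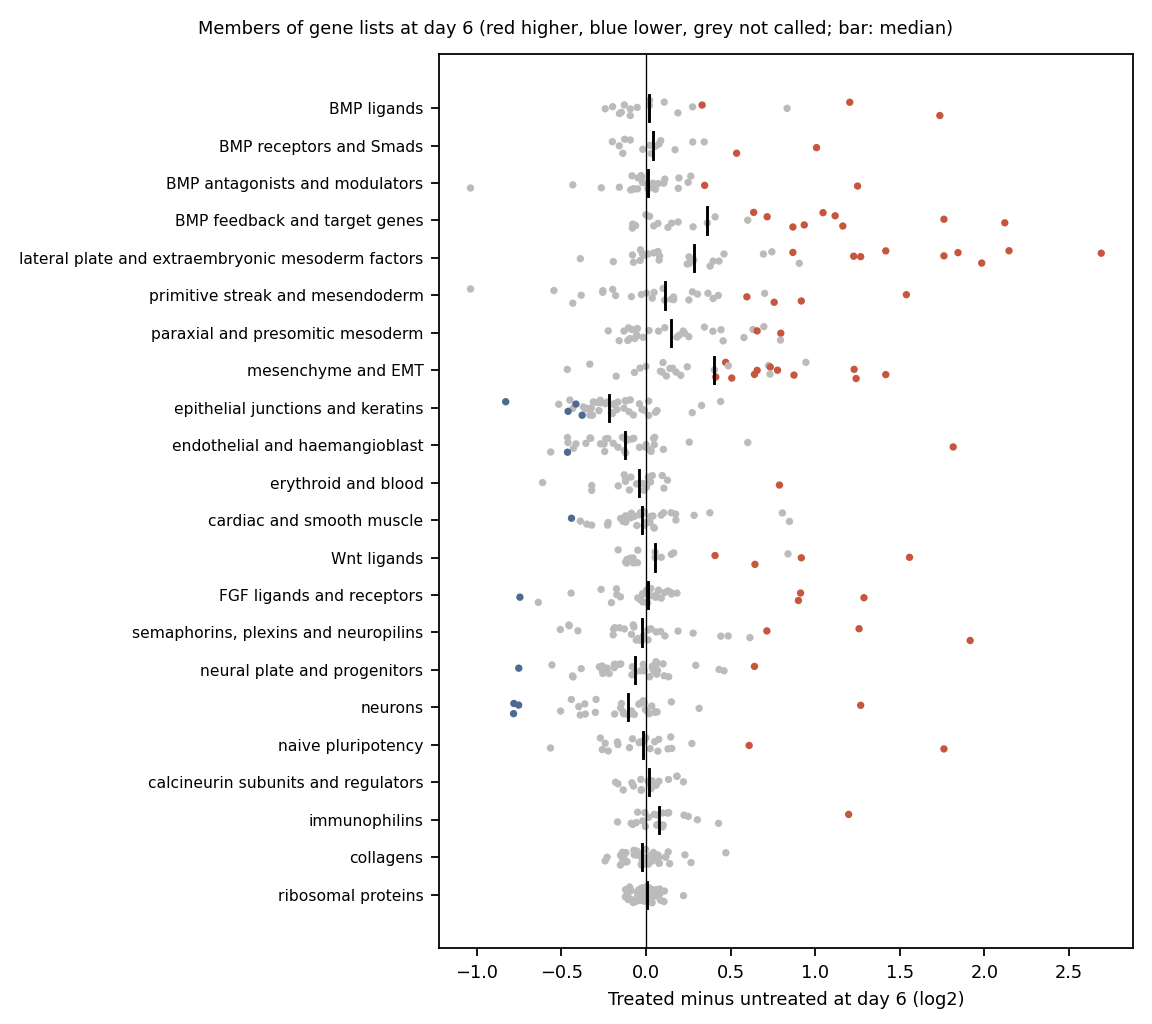
Treated minus untreated difference at day 6 (log2, horizontal axis) of each measured member of 22 gene lists, with genes called higher in red, lower in blue and not called in grey, and the list's median as a black bar. Mesenchyme (median 0.40), BMP targets (0.36) and lateral plate (0.28) lie to the right of 0, epithelial junctions (-0.22) to the left, and ribosomal proteins stay near 0 (0.006).

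Ligands of other pathways rose beside those of BMP, where 1.26% of all genes rose and 0.577% fell. Of 19 Wnt ligands 4 rose and 0 fell (median 0.05). Wnt5a, a ligand that acts mostly outside the beta-catenin branch, read 8.59, 7.51 and 8.35 untreated and 10.10, 9.33 and 9.70 treated, a gain of 2.94-fold with no overlap (SE 0.24 on the log2 scale, limma adjusted p = 0.00112). Wnt3, Wnt2b (0.64, SE 0.15) and Wnt5b (0.41, SE 0.10) also rose. Of 38 Wnt receptors and secreted antagonists 0 rose and 2 fell, Fzd8 by 0.60 (SE 0.13) and Fzd2 by 0.46 (SE 0.12), with a list median of -0.05. Both calls ended without untreated replicate 2, and under the replicate block 2 of the 38 rose and 3 fell. Among 24 Wnt target genes 5 rose and 1 fell. Apcdd1, a Wnt inhibitor induced by the pathway, read 8.73, 8.34 and 8.71 against 10.58, 9.45 and 10.27 (gain 1.51, SE 0.21), and Myc rose by 0.71 (SE 0.11), Tnfrsf19 by 0.67 (SE 0.14), and Bambi and Nkd1 as given above. Tcf7l1, a repressor that acts on Wnt targets, fell by 0.40 (SE 0.09). Without untreated replicate 2, and likewise without treated replicate 1 or untreated replicate 3, 1 of the 19 Wnt ligands rose.

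Of 29 FGF ligands and receptors 3 rose and 1 fell (10.3% and 3.45%, against 1.26% and 0.577% of all genes). Fgf10, a ligand of mesoderm, read 10.06, 8.57 and 9.71 untreated and 11.02, 10.48 and 10.70 treated (gain 1.29, SE 0.23, limma adjusted p = 0.00323), with the lowest value on untreated replicate 2. Fgf15 read 9.68, 9.70 and 9.71 against 10.81, 10.37 and 10.66 (gain 0.91, SE 0.19), and Fgf3 rose by 0.90 (SE 0.16). The untreated arrays of Fgf15 were nearly equal, and all treated arrays lay above them. Fgf14, which encodes an intracellular partner of sodium channels, fell by 0.74 (SE 0.13). Genes of the retinoic acid pathway also moved both ways: the binding protein gene Crabp1 rose by 0.70 (SE 0.14), Meis2 by 0.90 (SE 0.22) and Rdh11 by 0.43 (SE 0.08), while Dhrs3, whose enzyme turns retinaldehyde back to retinol, fell by 0.70 (SE 0.14). These were the 4 calls among 26 measured. Of 37 Hox genes 1 rose (2.7%, against 1.26% of all genes), Hoxb2 (0.81, SE 0.19). Of 32 Nodal, activin and TGF-beta genes only Tgfb1 and Tgfb2 did. No gene of the retinoic acid, Hox and Nodal lists was called without untreated replicate 2 or without treated replicate 1, where the call of Fgf15 also ended. None of 30 Notch pathway genes and 1 of 24 ERK feedback genes (Myc) were called.

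Receptors that steer migrating cells and axons were among the largest gains, though most genes of these families were not called. Of all genes, 1.26% were called higher. Nrp1, a co-receptor of semaphorins and VEGF, read 8.92, 7.39 and 8.59 untreated and 10.75, 9.56 and 10.34 treated (gain 1.92, SE 0.34, limma adjusted p = 0.00311). Unc5c, a netrin receptor, read 7.26, 7.17 and 7.35 against 10.05, 7.98 and 10.01. The untreated arrays of Unc5c were close together, and treated replicate 2 stood well below the other treated arrays while remaining above the untreated ones; its gain was 2.09 (SE 0.35, limma adjusted p = 0.00221). Plxna4, a semaphorin receptor, rose by 1.26 (SE 0.26) and Nrp2 by 0.71 (SE 0.17), so 3 of 31 semaphorin, plexin and neuropilin genes rose and 0 fell. In the netrin and Slit list 2 of 25 rose, Unc5c and Flrt3 (0.59, SE 0.14), and among ephrins and Eph receptors 2 of 21, Efnb1 (0.72, SE 0.16) and Epha4 (0.65, SE 0.11). The chemokine receptor genes Cxcr4 and Ackr3, which share the ligand CXCL12, rose by 1.07 (SE 0.23) and 0.88 (SE 0.19). Calls of Nrp1, Unc5c and Epha4 were kept in every alternative fit, and those of Plxna4, Nrp2, Flrt3, Efnb1, Cxcr4 and Ackr3 ended without untreated replicate 2.

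Imprinted genes, which are expressed from 1 parental copy and often regulate growth or placenta, gave 7 rises and 0 falls among 32 measured (median 0.11). Their share of rises was 21.9%, against 1.26% of all genes. Asb4, part of a ubiquitin ligase, read 9.45, 8.13 and 9.47 untreated and 11.44, 10.53 and 11.11 treated, a gain of 4.03-fold (SE 0.24 on the log2 scale, limma adjusted p = 0.000125). Phlda2, a growth-restricting gene of the placenta, read 12.83, 12.34 and 12.74 against 13.84, 13.42 and 13.71 (gain 1.02, SE 0.14). The growth factor gene Igf2 read 10.83, 10.41 and 11.04 against 12.35, 11.10 and 12.11 (gain 1.09, SE 0.22). The groups of all of these were apart, narrowly for Igf2, whose treated replicate 2 came near untreated replicate 3. The zinc-finger genes Zim1 and Peg3, which are neighbours, rose by 1.47 (SE 0.28) and 0.67 (SE 0.14), and Slc38a4 and Peg10 rose by 0.57 (SE 0.09) and 0.36 (SE 0.09). Trophoblast genes gave 5 rises and 1 fall among 21, of which Hand1, Gata3, Cdx2, Peg10 and Krt7 belong to other lists too. The remaining one, Plac1, read 6.51, 6.22 and 6.58 against 8.53, 7.15 and 8.46 (gain 1.61, SE 0.31), whereas the trophoblast markers Elf5 (6.78 ± 0.16 and 6.73 ± 0.11) and Tpbpa (4.90 ± 0.08 and 4.99 ± 0.13) were low in both groups. Without untreated replicate 2, or without treated replicate 1, 3 of the 32 imprinted genes rose and 1 of the 21 trophoblast genes.

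Usp18, which encodes the protease that takes ISG15 off proteins, was the 1 gene called among 45 interferon-stimulated genes (2.22%, where 1.26% of all genes rose). It read 8.83, 7.88 and 8.72 untreated and 10.66, 10.13 and 10.34 treated, a gain of 3.73-fold (SE 0.28 on the log2 scale, limma adjusted p = 0.000611) that was kept in every alternative fit. All treated arrays of Usp18 lay above all untreated ones. Other members lay between -0.37 (Oasl2) and 0.27 (Samd9l), and the median of the list was -0.06.

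The genes of the drugs' own targets gave 1 call, where 1.84% of all genes were called in either direction. None of 18 calcineurin subunits and regulators and none of 17 NFAT factors and NFAT kinases passed the test. The catalytic subunit gene Ppp3ca read 10.01, 10.01 and 10.10 untreated and 10.20, 10.29 and 10.29 treated, a difference of 0.22 (SE 0.08) with a limma adjusted p of 0.166, although its groups did not overlap. Ppp3cb (0.03, SE 0.08), the regulatory subunit gene Ppp3r1 (0.01, SE 0.08) and the feedback inhibitor gene Rcan1 (0.08, SE 0.10) had overlapping groups. Nfatc1, which NFAT induces in several cell types, read 7.98, 7.59 and 7.99 against 8.41, 8.23 and 8.03 (0.37, SE 0.10, limma adjusted p = 0.0733), and it passed with the replicate block within day (range over the alternatives 0.0387 to 0.518). The drug-binding immunophilin genes Fkbp1a (-0.05, SE 0.07) and Ppia (below 0.01 in size, SE 0.05) did not pass. Of 26 immunophilins 1 rose: Ppic, a cyclophilin of the secretory pathway, which read 10.44, 10.09 and 10.45 against 11.84, 11.08 and 11.66 (gain 1.20, SE 0.18, limma adjusted p = 0.000919). The groups of Ppic were apart, and its call was kept in every alternative fit.

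Pluripotency, epiblast and neural genes were called in both directions, and their counts moved with the fit. Over all genes 1.26% were called higher and 0.577% lower. Of 24 naive pluripotency genes 2 rose, Tbx3 and Prdm14 (0.61, SE 0.13), and 0 fell. In the primed and formative epiblast list 17 of 22 differences were below 0 (median -0.33), with 2 falls and 2 rises. Foxd3, a forkhead factor of epiblast and neural crest, read 8.45, 8.73 and 8.52 untreated and 7.76, 7.86 and 7.85 treated, a fall of 1.68-fold with no overlap (SE 0.14 on the log2 scale, limma adjusted p = 0.00629), and Sall2 fell by 0.75 (SE 0.16). Fgf15 and Cdh2 were the genes that rose. Fgf5, the epiblast ligand, read 10.82, 10.98 and 11.09 against 9.89, 10.70 and 10.39 and did not pass (-0.64, SE 0.35), and it passed only in the fit of the 6 arrays alone with the replicate block (limma adjusted p 0.00773 to 0.798 over the alternatives). Over the 7 epiblast markers the mean signal ran from 11.97 to 12.13 on the untreated arrays and from 11.49 to 11.91 on the treated ones, with 0 of 7 called. Of 39 neural plate genes 1 rose (Cdh2) and 1 fell (Sall2), with Sox1 at -0.08 and Pax6 at -0.23. Of 33 neuronal genes 1 rose, Isl1, and 3 fell: Ebf1 (-0.78, SE 0.18), the tubulin gene Tubb4a (-0.78, SE 0.19) and Cdh9. Without untreated replicate 2, 0 genes of the epiblast, neural plate and neuronal lists fell; 3 epiblast genes and 3 neuronal genes fell without untreated replicate 1. Under the replicate block 5 of the 22 epiblast genes fell, and in the 6 arrays of day 6 alone with the block 11 epiblast and 10 neuronal genes fell.

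Sterol synthesis and stress genes gave 3 rises each. Of 28 sterol and fatty acid synthesis genes 27 had differences above 0 (median 0.19) and 3 passed: Cyp51, which read 10.31, 10.37 and 10.31 untreated and 10.74, 10.85 and 10.71 treated (gain 0.44, SE 0.09), Nsdhl (0.43, SE 0.08) and Sc5d (0.35, SE 0.08). In the unfolded protein and integrated stress response list 30 of 35 differences were above 0 (median 0.12) and 3 passed: Vldlr, a lipoprotein and reelin receptor (0.97, SE 0.14), and the endoplasmic reticulum genes Edem1 (0.27, SE 0.06) and Pdia6 (0.26, SE 0.06). Over all genes 51.4% of differences were above 0. The cyclin gene Ccnd2 rose by 0.54 (SE 0.11) as the 1 call among 41 cell cycle genes (2.44%, against 1.26% of all genes). Bcl2l11, which encodes the apoptosis inducer Bim, fell by 0.53 (SE 0.10) as the 1 call among 23 p53 and apoptosis genes. Of 137 potassium and calcium channel genes 2 rose, the calcium channel genes Cacna1c (0.78, SE 0.14) and Cacna2d2 (0.65, SE 0.14), and 1 fell, Cacna1h (-0.36, SE 0.09). These shares (1.46% and 0.73%) were near those over all genes (1.26% and 0.577%). No gene passed among 57 ribosomal protein, 28 hypoxia and glycolysis, 23 Hippo target, 19 Sox, 16 DNA methylation and 14 reference genes. Without untreated replicate 2, 1 of the 28 sterol genes and 1 of the 35 stress genes rose.

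Several of the largest changes belonged to none of the lists, which held 93 of the 251 higher and 24 of the 115 lower genes. Capn6, a calpain-like protein without protease activity, read 8.23, 7.40 and 8.32 untreated and 10.82, 9.21 and 10.47 treated (gain 2.19, SE 0.31, limma adjusted p = 0.000441). Pmp22, a myelin and membrane protein gene, stood at 10.70 ± 0.63 untreated and 12.64 ± 0.45 treated (SD, n = 3; gain 1.93, SE 0.25). Vstm2b, of the immunoglobulin family, read 8.93, 8.14 and 8.62 against 11.02, 9.91 and 10.22 (gain 1.82, SE 0.21). In all of these replicate 2 was the lowest array of each group and the groups did not overlap. Asb12 (1.78, SE 0.38), Rgs5, a regulator of G-protein signalling (1.71, SE 0.26), Klhl6 (1.53, SE 0.27) and the chromatin ATPase gene Morc4 (1.44, SE 0.25) completed the 25 largest gains. The call of Asb12 ended without untreated replicate 2, treated replicate 1 or treated replicate 3, and that of Klhl6 in the fit of the 2 groups alone (limma adjusted p 0.0509, against 0.000193 to 0.0509 over all its alternatives).

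The 3 genes that fell to 50% or less were also outside the lists. Tmem154 read 8.15, 8.92 and 8.55 untreated and 7.26, 7.78 and 7.14 treated, a fall of 2.22-fold (SE 0.19 on the log2 scale, limma adjusted p = 0.0018). Exoc3l, related to the exocyst subunit Sec6, read 8.78, 8.54 and 8.54 against 7.60, 7.67 and 7.44, a fall of 2.07-fold (SE 0.13, limma adjusted p = 0.000125). Klhl4 read 8.22, 7.92 and 8.26 against 6.79, 7.26 and 7.23, a fall of 2.06-fold (SE 0.18, limma adjusted p = 0.00303). The groups were apart in all of them, and the replicates of Exoc3l lay close together in either group. Smaller falls included Castor2, a relative of an arginine sensor (-0.70, SE 0.10), Pde1b, a phosphodiesterase activated by calcium and calmodulin (-0.68, SE 0.12), the ubiquitin hydrolase gene Uchl1 (-0.62, SE 0.15), the clock gene Arntl2 (-0.61, SE 0.09), the glutamate transporter gene Slc1a3 (-0.60, SE 0.14), Nav2 (-0.58, SE 0.09) and the vesicle GTPase gene Rab3b (-0.56, SE 0.10). Pdzd4 (-0.70, SE 0.17), the phospholipase gene Plcd1 (-0.58, SE 0.12), the chemokine gene Ccl20 (-0.56, SE 0.12) and the lymphotoxin gene Ltb (-0.76, SE 0.16) completed the 25 largest falls. Calls of Tmem154, Exoc3l, Klhl4, Castor2, Pde1b, Arntl2, Nav2, Rab3b and Fgf14 were kept in every alternative fit, and those of Uchl1, Slc1a3, Pdzd4, Plcd1, Ccl20 and Ltb ended without untreated replicate 2.

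The drug effect was also set beside that of the other days, each a difference between the group means of its own 6 arrays. All days were tested in the same fit, so a gene had the same SE on each day (0.27 for Foxf1). Calls on different days were therefore not separate tests, and how much the shared SE adds to their overlap was not tested. At day 4, the first sampled day after the drugs were added, limma called 1 gene higher and 0 lower (0.00502% and 0%), and the 251 genes that were higher at day 6 had a median difference of 0.07 at day 4 with 0 called. At day 8 their median difference was 0.22, 64 of the 251 were called higher (25.5%, against 4.86% of all genes) and 0 lower. Of the 115 genes lower at day 6, 39 were called lower at day 8 (33.9%, against 4.08% of all genes) and 0 higher. Day 12 came after the drugs were removed and all cultures had become serum-free. Both changes fell on day 8, so from day 8 to day 12 they cannot be told apart. At day 12, 46 of the 251 were called higher (7.49% of all genes were) and 17 lower, and 26 of the 115 were called lower (10.4% of all genes were) and 5 higher.

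Tests of the change itself found that the drug effect was more positive at day 6 than at day 4 for 15 genes and more negative for 4 (0.0752% and 0.0201% of those tested). Among the 10 largest gains, Foxf1 (change 2.63, from 0.06 at day 4), Capn6 (2.36), Msx2 (2.03), Asb4 (2.17) and Prdm6 (2.14) passed, whereas Hand1, Unc5c, Pmp22, Nrp1 and Usp18 did not. From day 6 to day 8 the effect became more positive for 44 genes and more negative for 36 (0.221% and 0.181%). Foxf1 changed by -1.92, to an effect of 0.77, and Usp18 by -1.78, to 0.12, while Exoc3l changed by 0.93, to -0.12, and Spon1 by 1.42, to 0.49. The gap of Foxf1 narrowed as untreated EBs rose: it stood at 8.05, 8.07 and 10.88 in untreated EBs at days 4, 6 and 8, and at 8.10, 10.76 and 11.65 in treated ones. Usp18 was different in that its treated level came down, from 10.38 at day 6 to 8.93 at day 8, beside 8.48 and 8.82 in untreated EBs. These counts moved with the fit: with the replicate block within day the effect was more positive at day 6 than at day 4 for 117 genes and more negative for 44, and so for 375 and 273 from day 6 to day 8. Leaving out single arrays gave 4 to 59 and 0 to 9 genes from day 4 to day 6 (59 and 7 without treated day 6 replicate 2, 4 and 0 without treated day 6 replicate 1). From day 6 to day 8 it gave 6 to 594 and 3 to 508, with 594 and 508 without treated day 8 replicate 2, 6 and 5 without untreated day 6 replicate 2 and 6 and 3 without treated day 8 replicate 1.

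**Figure D4:**
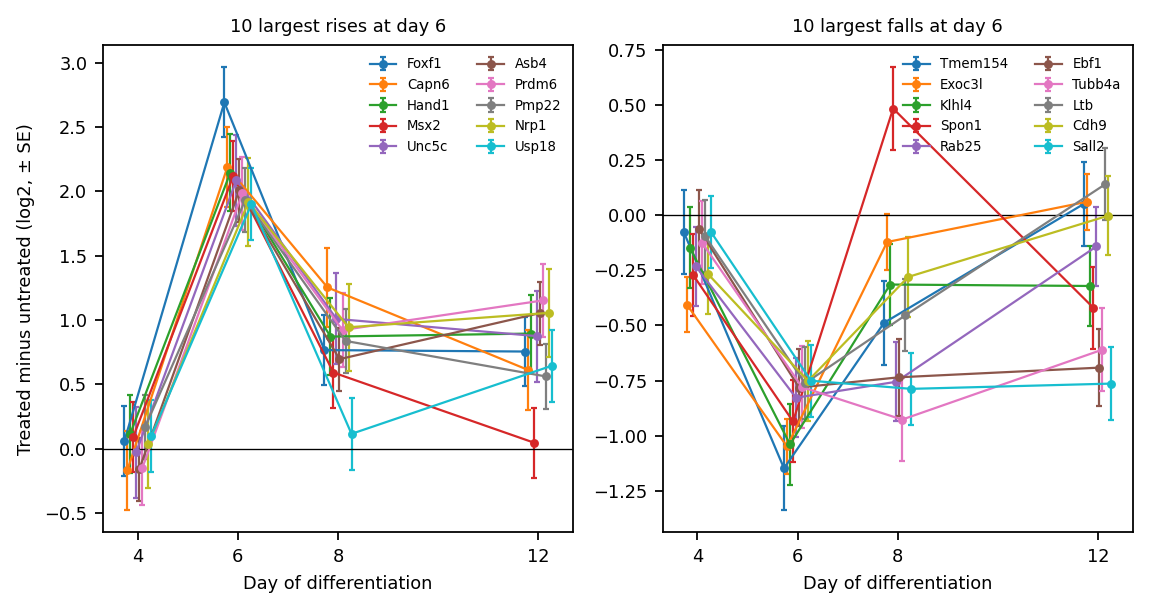
Treated minus untreated difference (log2, vertical axes, ± SE from the fit of all 24 arrays) at days 4, 6, 8 and 12 of the 10 largest gains (left) and the 10 largest falls (right) at day 6. The gains lie between 1.90 and 2.69 at day 6, and each is smaller at day 8, while Spon1 goes from -0.94 to 0.49. The genes were chosen for the size of their day 6 difference. Of the 10 gains only Foxf1 and Usp18 passed the test of the change from day 6 to day 8.

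Most genes that rose under the drugs also rose in untreated EBs between day 4 and day 8. The group means of that comparison share no array with those of the drug effect at day 6. Both tests came from the same fit, however, so a gene had the same SE in both (0.27 for Foxf1). Genes with a small SE pass both tests more easily, and how much this adds to the overlap of calls was not tested. Of the 251 higher genes 190 were called higher over that course (75.7%, against 17.4% of all genes; 5.48% of the genes that rose over the course) and 7 lower. Of the 115 lower genes 46 were called lower over the course (40% of them, against 17.3% of all genes; 1.33% of the genes that fell over the course) and 20 higher. Over all 19938 genes the 2 differences had Pearson r = 0.38 and Spearman rho = 0.18, a description across genes, which are not independent replicates. Some levels in treated EBs at day 6 passed those of untreated EBs at day 8, and others stayed below. Msx2 stood at 10.43 and 10.05, Kdr at 10.70 and 9.89, and Mesp1 at 10.03 and 8.38. Mesp1 in untreated EBs was already at 8.49 on day 6. Foxf1 stayed below at 10.76 and 10.88, as did Unc5c at 9.35 and 10.51 and Bmp5 at 9.21 and 10.52. Of the 5 largest gains (Foxf1, Capn6, Hand1, Msx2 and Unc5c) only Msx2 reached the untreated day 8 level. Genes that were higher in treated EBs at day 6 without a rise in the untreated course included Fgf15 (0.08 from day 4 to day 8), Prdm14 (-0.17) and Cyp51 (-0.02). Fgf15 dipped in untreated EBs, at 10.72, 9.70 and 10.80 on days 4, 6 and 8. In treated EBs it stood at 10.89 on day 4 and 10.61 on day 6. Prdm14 went from 7.86 to 7.57 in untreated EBs between days 4 and 6, and stayed at 8.16 and 8.18 in treated ones. Among the falls, Thbs1 and Klhl4 went against the course, in which they had differences of 2.26 and 0.98, while Tmem154 (-1.08), Ebf1 (-1.22) and Foxd3 (-1.23) went with it. Untreated replicate 2, which was the lowest untreated array for most of the higher genes, was also the highest untreated array for 75 of the 115 lower ones (65.2%); its part in these overlaps was not tested.

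**Figure D5:**
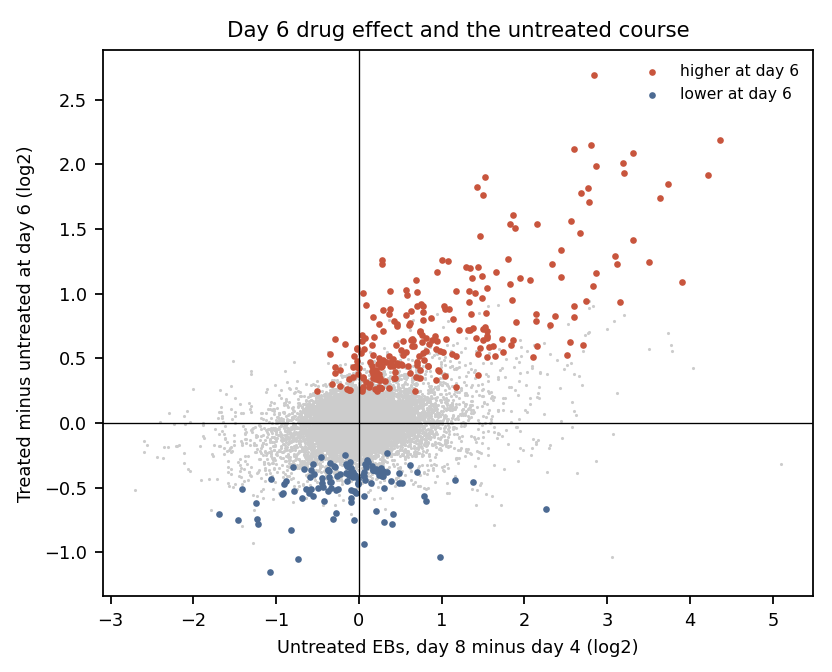
Difference between treated and untreated EBs at day 6 (log2, vertical axis) against the change of untreated EBs from day 4 to day 8 (log2, horizontal axis), 1 point per gene, with genes called higher at day 6 in red and lower in blue. Most red points lie to the right of 0, and 190 of the 251 were called higher in the untreated course, while blue points lie on both sides.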

How the data were processed

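Total RNA of 24 EB samples was hybridised to Affymetrix Mouse Gene ST arrays. The authors deposited log2 values of 35556 probe sets summarised by RMA (robust multiarray average) in the Expression Console software of Affymetrix, per the submitters' processing notes; the log2 scale was read from the value range, and the software version and genome build were not given in the sources used here. Without detection calls, low signals may be background. Precision is limited by the number of arrays; at day 6 a difference had a median SE of 0.09.

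Symbols came from the platform annotation: 21789 probe sets had 1 symbol, of which 21698 matched the GRCm38.p6 gene table by Entrez identifier, 1621 had several and 12146 were unlisted. For the 999 genes with several probe sets the brightest was used, leaving 19938 genes. The brachyury gene was not analysed here. One mean per group was fitted over 24 arrays with limma 3.58.1 in R 4.3.3 (lmFit, eBayes, 16 residual degrees of freedom), with Benjamini-Hochberg adjustment at 0.05 for each contrast. Labels do not say how independent the biological replicates were, so p-values measure the spread between these samples. That spread was pooled over the groups of all 24 arrays, so the other days also set each SE printed for day 6. Fgf5, for example, had SE 0.35. Its SD was 0.13 untreated and 0.41 treated at day 6, and 1.18 in treated EBs of day 8.

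This fit has no replicate block. No label describes a pairing; same-numbered arrays were read as pairs on their correlations alone, and the block was an alternative. Named genes were the 25 top rises and 25 top falls among called genes without overlap between groups (passing over clone-named models, small RNAs and pseudogenes), called members of the lists described, and 23 fixed genes; other genes were chosen after their values were seen. The members and lists were chosen with earlier results of these data known. Alternatives were quantile normalization, median centring, genes above the 40th percentile, averaged probe sets, array weights, an intensity trend with a robust prior, the replicate block, leaving out each array, the compared groups alone, and stricter thresholds. Plots used Python 3.11.15 and matplotlib 3.10.9.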

Additional observations from a re-analysis of the deposited data

Results flagged for a closer look

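The drug effect differed between days by a direct test for a small set of genes. Between day 4 and day 6 it became more positive for 15 genes and more negative for 4, and of the 10 largest gains at day 6 Foxf1 (change 2.63), Capn6 (2.36), Msx2 (2.03), Asb4 (2.17) and Prdm6 (2.14) were among them. Between day 6 and day 8 it became more positive for 44 genes and more negative for 36, among them Foxf1 (-1.92), Usp18 (-1.78), Exoc3l (0.93) and Spon1 (1.42). Probe sets without a listed symbol, which entered no comparison above, also gave calls at day 6: 20 of 12146 were higher and 9 lower in treated EBs in a fit over all probe sets.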

How the results depend on the processing

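With array weights 668 genes were higher and 624 lower at day 6, 309 and 305 between day 4 and day 6, and 710 and 680 between day 6 and day 8. The replicate block within day gave 418 and 303, 117 and 44, and 375 and 273, and the block in the 6 arrays of day 6 alone 562 and 533. Fits of the compared groups alone gave 5 and 0 between day 4 and day 6 and 2 and 1 between day 6 and day 8. An intensity trend with robust prior gave 8 and 2 between day 4 and day 6. Quantile normalization called 198 genes lower at day 6, and 67 more positive between day 6 and day 8, where median centring gave 76. Changes of at least 2-fold numbered 58 and 3 at day 6, 0 negative ones between day 4 and day 6, and 26 and 21 between day 6 and day 8. Leaving out 1 array gave 79 to 246 higher and 19 to 129 lower genes at day 6, 4 to 59 and 0 to 9 between day 4 and day 6, and 6 to 594 and 3 to 508 between day 6 and day 8.

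Of 137 called genes named in lists or among the largest changes, 51 kept their call in every alternative fit and 86 lost it in at least 1, with 0 changes of sign. Among uncalled genes, signs turned at small values: Ppp3r1 was -0.020 after quantile normalization and -0.0014 after centring, and Ppia 0.019 after quantile normalization, 0.00094 with the mean of probe sets and 0.0035 with array weights. With 1 array left out Nanog ran from -0.16 to 0.041, Nog from -0.061 to 0.11, Ppp3cb from -0.014 to 0.083, Ppp3r1 from -0.020 to 0.036 and Ppia from -0.016 to 0.0071. The change of the effect from day 6 to day 8 turned for Rab25 with array weights (-0.091) and for Sall2 after centring (0.0043), and with 1 array left out ran from -0.20 to 0.22 for Rab25, -0.24 to 0.21 for Ebf1, -0.34 to 0.0075 for Tubb4a and -0.21 to 0.16 for Sall2. The causes were not tested. No detection calls were used, so what signal over background limits was not examined.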

Other observations

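X-linked genes were called higher at day 6 more often than autosomal ones, a count made after the values were seen. Of 739 X-linked genes 30 were higher (4.06%), against 221 of 19106 autosomal genes (1.16%), and they included Capn6, Asb12, Plac1, Morc4, Amot, Efnb1 and Gpc3. The share stayed above the autosomal one in each of the 15 alternative fits, being 1.22% against 0.366% without untreated replicate 2 and 1.76% against 0.424% without treated replicate 1. The median difference of X-linked genes was 0.01, and Xist was not called (6.65 and 6.69 as group means). No cause was tested.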
